A study of Mus musculus with 2 samples.

Results

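The MHC class I presentation pathway was followed through 10 genes, chosen by symbol, in perivascular cells (PCs) of the mouse aorta. They were H2-K1, H2-D1, B2m, Tap1, Tap2, Tapbp, Psmb8, Psmb9, Psmb10 and Nlrc5, 10 of the 20211 symbols in the expression tables, and each stood on a single row. RNA was sequenced from 1 library of WT cells and 1 library of cells labelled as knockout of Kai1 (Kai1−/−), the gene also known as Cd82, which encodes a tetraspanin of the cell surface. Both cultures came from aorta on a C57BL/6 background and were grown in DMEM with 10% FBS according to the sample labels, which give neither age nor sex of the animals and no treatment. A higher serum content is given for these cells in the culture methods of the study. The allele of the knockout was not described in the sources used here, and how many animals entered each culture was not stated.

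MHC class I molecules display fragments of the cell's own proteins to CD8+ T cells and are found on nearly every nucleated cell. Proteasomes cut proteins into peptides, the TAP transporter pumps these into the endoplasmic reticulum, tapasin holds an empty heavy chain beside the transporter, and the loaded heavy chain leaves for the surface together with β2-microglobulin. Interferons raise most of these genes and bring in immunoproteasome subunits, which take the place of constitutive catalytic subunits in the core of the proteasome. NLRC5 is a transactivator that is recruited to class I promoters.

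Expression was given in RPKM, a read count divided by the length of the transcript and the size of the library, so that levels can be compared between genes of different length. Log2 ratios of Kai1−/− to WT were taken after 0.1 RPKM was added to each value, which understates differences of low genes, and the counts below use the 10068 genes whose RPKM averaged 1 or more across the libraries, called the genes kept. With 1 library per genotype there was no replicate check and no test between genotypes. The steps between low RPKM values corresponded to about 28.9 M reads in the WT library and 26.6 M reads in the Kai1−/− library, and the 95% intervals given below come from reads estimated in this way and cover counting error only. Cd82 stood at 12.8 RPKM in WT PCs and at 2.62 RPKM in Kai1−/− PCs, so that 20.5% of the WT level was still listed in the knockout library. All 4 Y-linked genes looked up (Ddx3y, Eif2s3y, Kdm5d and Uty) were above 0 in the WT library and listed at 0 in the Kai1−/− library, so that genotype cannot be told apart from a difference in sex or in culture.

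The promoters of the heavy and light chains are shown first, because these 3 genes carry the shared control elements for which class I genes are known. Start sites came from a table of RefSeq promoters that matched 8 of the 10 genes by symbol, all except Tap2 and Nlrc5, and the 250 bases before each start site matched the mouse genome build NCBIM37 (mm9) exactly at 1 place. They lie at chr17:34137293-34137542 on the minus strand for H2-K1, at chr17:35399789-35400038 on the plus strand for H2-D1 and at chr2:121973173-121973422 on the plus strand for B2m. Each is written from 5′ to 3′ and ends at the base before the start site. Capitals mark matches, on either strand, to an interferon element (GAANNGAAA or GAAANNGAAA), to the κB consensus, to TGACG, the core of a CRE-like site, and to CCAAT, which reads ATTGG on the other strand.
H2-K1: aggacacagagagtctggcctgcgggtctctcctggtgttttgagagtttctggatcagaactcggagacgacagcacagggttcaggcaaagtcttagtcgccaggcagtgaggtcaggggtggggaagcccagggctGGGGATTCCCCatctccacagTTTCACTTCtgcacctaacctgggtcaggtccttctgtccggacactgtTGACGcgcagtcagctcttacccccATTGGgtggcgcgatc
H2-D1: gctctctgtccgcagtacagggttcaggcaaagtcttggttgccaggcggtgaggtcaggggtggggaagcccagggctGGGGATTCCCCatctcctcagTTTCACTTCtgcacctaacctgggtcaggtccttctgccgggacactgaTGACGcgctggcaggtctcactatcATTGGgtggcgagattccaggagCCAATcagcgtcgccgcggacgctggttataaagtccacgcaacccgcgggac
B2m: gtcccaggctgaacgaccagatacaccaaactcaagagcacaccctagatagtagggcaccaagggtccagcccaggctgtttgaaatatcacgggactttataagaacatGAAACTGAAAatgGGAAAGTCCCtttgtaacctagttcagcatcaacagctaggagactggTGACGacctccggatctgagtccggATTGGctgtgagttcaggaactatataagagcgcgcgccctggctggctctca

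Of all 32851 RefSeq windows of this length, 8.82% held an interferon element in either form, 17.8% TGACG and 33.8% CCAAT, and 1643 windows held the κB consensus. All 3 windows above held each of the 4 elements. The first base of the interferon element was at -90 in H2-K1, at -150 in H2-D1 and at -139 in B2m, counted from the start site. From H2-K1 to H2-D1 all 4 elements were offset by the same number of bases, and such positions depend on the start site used. The window of H2-D1 lies inside the gene as annotated below, which begins at 35399675, so the 2 annotations place its start differently. In each of the 3 windows ATTGG began 25 bases after the beginning of TGACG, an arrangement found in 30 of the 32851 windows, or 0.0913%. This spacing was looked for after it had been seen in these 3 windows. In H2-K1 and H2-D1, where the κB consensus matched on both strands in overlapping positions, the κB and interferon elements had the same letters and the κB element came first, whereas in B2m the interferon element came first.

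Tap1 and Psmb9 point away from each other on chromosome 17, and their windows overlapped by 225 bases. The window of Tap1, at chr17:34324251-34324500 on the plus strand, is shown with the same capitals because it serves as the upstream region of both genes.
Tap1: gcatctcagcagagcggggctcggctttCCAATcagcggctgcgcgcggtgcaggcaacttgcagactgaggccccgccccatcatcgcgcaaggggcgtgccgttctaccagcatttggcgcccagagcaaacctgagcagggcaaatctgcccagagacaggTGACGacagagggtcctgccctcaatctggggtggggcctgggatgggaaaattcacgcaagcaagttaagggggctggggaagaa

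This shared window held TGACG and CCAAT but neither the interferon element in these forms nor the κB consensus, and the pair of TGACG and ATTGG at a distance of 25 bases was not in it. The windows of Tapbp, Psmb8 and Psmb10 likewise held no interferon element in these letters and no κB consensus. Those of Tapbp and Psmb8, like that of H2-D1, lie inside their annotated genes. A match is a string of letters and not a measured site, and the absence of a match concerns these windows only.

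In the WT library the 10 genes spanned a wide range of levels. B2m was the highest, followed by H2-D1, Tapbp, Psmb10, H2-K1, Tap1, Tap2, Psmb8, Psmb9 and Nlrc5. The counting intervals of H2-K1 and Tap1 overlapped, as did those of Tap1 and Tap2, and all other neighbours in this order were apart. In the Kai1−/− library Psmb10 moved above H2-D1 and Tap1 above H2-K1, in both cases with overlapping intervals, and the intervals of Tap2 and Psmb8 overlapped as well. Only 2.06% of the genes kept were above B2m in WT PCs, whereas 88.5% were above Psmb8. Psmb9 and Nlrc5 had a mean RPKM below 1 and were left out of counts, which left 8 of the 10 genes. The labelled cells thus expressed the heavy chains, the light chain, the transporter and tapasin, with the inducible subunits Psmb8 and Psmb9 low among them.

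**Figure D1:**
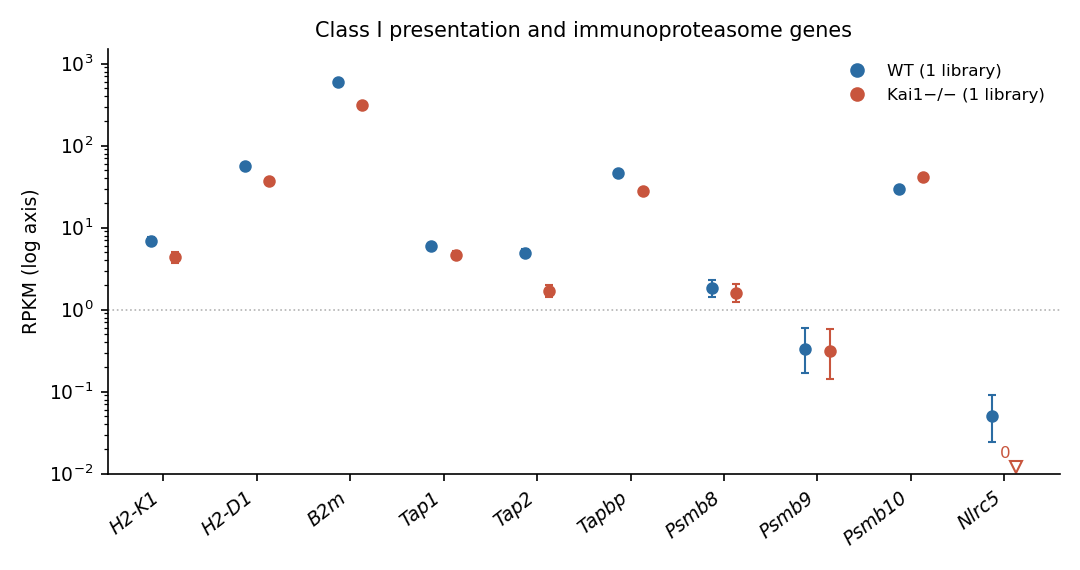
RPKM (log axis) of the 10 genes in the WT library (blue) and the Kai1−/− library (red), with 95% intervals of counting error from estimated reads. The dotted line marks an RPKM of 1, and the open triangle marks Nlrc5, listed at 0 in the Kai1−/− library. Red lies below blue for each gene except Psmb10, and the intervals overlap for Psmb8 and Psmb9.

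Of the 8 genes kept, 7 had a lower RPKM in Kai1−/− PCs than in WT PCs, against 44.9% of all genes kept. Tap2 was the only member more than 2-fold lower and 0 members were more than 2-fold higher, where the corresponding shares of all genes kept were 7.81% lower and 7.98% higher. These shares stand for 786 and 803 genes, and they depend on scaling, with 968 genes lower and 576 higher when the upper quartile of the libraries was made equal and 1815 and 249 when both were scaled to Gapdh. Scaling to Gapdh shifted log2 ratios by -0.50 in genes well above the added 0.1 RPKM, so that their ratios between 0 and 0.50 changed sign. Low genes shifted less. The totals were unequal as well, since all symbols together summed to 884463 RPKM for WT and 1238190 RPKM for Kai1−/−. A scaling to equal totals was not run, and it too would lower the ratios of Kai1−/− to WT. With ribosomal protein genes left out of the totals, such a scaling shifted log2 ratios by -0.19. The count of 1 in 8 was near the background as reported, and it was 2 with the upper quartile made equal and 5 when scaled to Gapdh, where 18.5% of all genes kept were more than 2-fold lower. Their median log2 ratio was -0.63, against 0.08 for all genes kept. It was -0.62 over the 9 genes above 0 in both libraries and -0.60 over all 10, where the ratio of Nlrc5 depends on the added 0.1 RPKM.

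The heavy chains H2-K1 and H2-D1, which form the peptide groove, were lower in Kai1−/− PCs by about the same factor. H2-K1 (chromosome 17, from 34132962 to 34137278, minus strand) stood at 6.86 RPKM in WT PCs and at 4.35 RPKM in Kai1−/− PCs, or 63.4% of WT (95% interval 51.7 to 76.9%). H2-D1 (chromosome 17, from 35399675 to 35404444, plus strand) stood at 57.2 RPKM in WT PCs and at 37.2 RPKM in Kai1−/− PCs, or 65.0% of WT (61.3 to 68.8%). The level of H2-D1 was 8.34 times that of H2-K1 in WT PCs and 8.55 times in Kai1−/− PCs, so that the balance between the heavy chains was nearly the same in both libraries. Heavy chain genes are close relatives. Of the stretches of 36 bases in the longest coding transcript, 18.1% for H2-K1 and 23.4% for H2-D1 also occurred in transcripts of other genes, and how reads of such stretches were divided is not given in the sources used here.

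B2m, which encodes β2-microglobulin, the light chain common to all class I molecules, had the highest level of the 10 genes and was lower in the Kai1−/− library. It stood at 592 RPKM in WT PCs and at 314 RPKM in Kai1−/− PCs, or 53.0% of WT (51.3 to 54.7%), a log2 ratio of -0.92, and 9.07% of the genes kept had a lower ratio. B2m lies on chromosome 2 from 121973422 to 121978819 on the plus strand, apart from the MHC on chromosome 17, and shared none of its stretches of 36 bases with another gene. The level of B2m was 9.24 times the sum of H2-K1 and H2-D1 in WT PCs and 7.56 times in Kai1−/− PCs. With the upper quartile of the libraries made equal, its log2 ratio was -1.04, past the 2-fold line that it had narrowly missed.

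The transporter subunits Tap1 and Tap2, which act together as a heterodimer, had nearly equal levels in WT PCs and unequal levels in Kai1−/− PCs. Tap1 (chromosome 17, from 34324498 to 34334170) stood at 5.92 RPKM in WT PCs and at 4.66 RPKM in Kai1−/− PCs, or 78.8% of WT (68.1 to 90.5%). Tap2 (chromosome 17, from 34340472 to 34353266) stood at 4.97 RPKM in WT PCs and at 1.68 RPKM in Kai1−/− PCs, or 33.8% of WT (27.9 to 40.9%). The log2 ratio of Tap2 was -1.51, the lowest of the 10 genes, and 3.93% of the genes kept had a lower ratio. Tap1 was at 1.19 times the level of Tap2 in WT PCs and at 2.77 times in Kai1−/− PCs. The intervals of the ratios of Tap1 and Tap2 do not overlap, so the difference between the subunits was larger than the counting error of these libraries. Tapbp, which encodes tapasin (chromosome 17, from 34052844 to 34066235), stood at 46.6 RPKM in WT PCs and at 28.1 RPKM in Kai1−/− PCs, or 60.3% of WT (57.1 to 63.7%). The gene model of Tapbp overlaps that of Zbtb22, which was higher in Kai1−/− PCs (a log2 ratio of 0.38), and strandedness of the library was not stated.

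**Figure D2:**
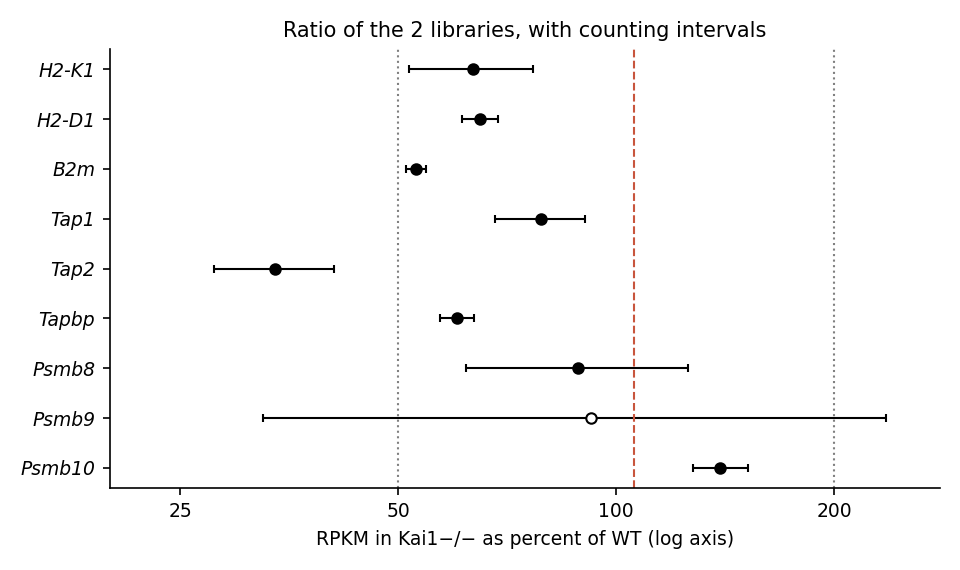
RPKM in the Kai1−/− library as percent of the WT library (log axis) for the 9 genes above 0 in both, with 95% intervals of counting error. The open circle is Psmb9, whose mean RPKM is below 1, the dotted lines mark a 2-fold difference, and the dashed line is the median of the genes kept, 106%. The 6 genes of the heavy chains, light chain, transporter and tapasin lie between 33.8% and 78.8% of WT, and Psmb10 lies at 139%.

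The 3 immunoproteasome genes had higher ratios than the 6 genes of the heavy chains, light chain, transporter and tapasin. Only the counting interval of Psmb10 lay apart from those of all 6. The interval of Psmb8 lay above those of B2m and Tap2 but overlapped those of H2-K1, H2-D1, Tap1 and Tapbp, and that of Psmb9 overlapped all 6. Psmb8, which replaces the constitutive subunit Psmb5, stood at 1.82 RPKM in WT PCs and at 1.61 RPKM in Kai1−/− PCs, or 88.7% of WT (62.0 to 126%). Psmb9, which replaces Psmb6, stood at 0.336 RPKM in WT PCs and at 0.310 RPKM in Kai1−/− PCs, about 11 and 9 reads, or 92.4% of WT (32.6 to 236%). For both genes the interval included 100% of WT, and also the ratios of both heavy chains, so that no difference from WT was detectable at this depth and none from the heavy chains either. Psmb10, which replaces Psmb7, stood at 29.5 RPKM in WT PCs and at 41.0 RPKM in Kai1−/− PCs, or 139% of WT (128 to 152%), a log2 ratio of 0.48 that was at -0.02 with both libraries scaled to Gapdh. The gene for Psmb10 occupies the minus strand of chromosome 8 between 108459628 and 108462292, while Psmb8 and Psmb9 lie beside the TAP genes on chromosome 17.

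Set beside the subunits they replace, the immunoproteasome genes were a small part of the catalytic subunit transcripts in both libraries. Psmb5 stood at 1007 RPKM in WT PCs and at 1530 RPKM in Kai1−/− PCs, Psmb6 had 295 and 560, and Psmb7 had 549 and 766. Psmb8 made up 0.180% of the summed RPKM of Psmb8 and Psmb5 in WT PCs and 0.105% in Kai1−/− PCs. The corresponding share of Psmb9 beside Psmb6 was 0.114% in WT PCs and 0.0553% in Kai1−/− PCs. Psmb10 made up 5.09% of its sum with Psmb7 in WT PCs and 5.08% in Kai1−/− PCs. The share of Psmb9 rests on about 11 and 9 reads. The share of Psmb10 was therefore nearly equal in both libraries, and the higher RPKM of Psmb10 went with a higher RPKM of Psmb7. These shares do not depend on how the libraries are scaled, since both genes of a pair are scaled alike.

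**Figure D3:**
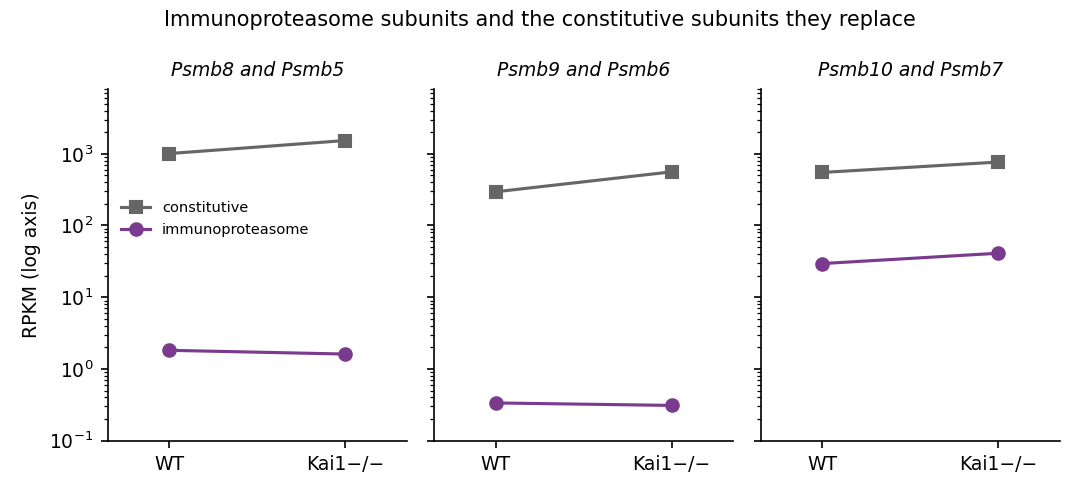
RPKM (log axis) of each immunoproteasome subunit (purple circles) and the constitutive subunit it replaces (grey squares) in the WT and Kai1−/− libraries, 1 library each. The constitutive subunits are 553.7 times (Psmb5 over Psmb8), 879.5 times (Psmb6 over Psmb9) and 18.6 times (Psmb7 over Psmb10) the level of their counterparts in WT PCs.

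Nlrc5, the transactivator of class I promoters, was close to the limit of detection. It had an RPKM of 0.0500 in WT PCs, about 10 reads, and was listed at 0 in Kai1−/− PCs, so that no ratio is given. GENCODE M1 places Nlrc5 on chromosome 8 from 96996663 to 97051172 and annotates it as a lincRNA, with no coding transcript in that release. Among the other regulators of class I promoters, the subunits of the RFX complex, which binds the X box, had RPKM values in WT and Kai1−/− PCs of 1.88 and 1.38 for Rfx5, 6.08 and 6.62 for Rfxap and 1.42 and 1.81 for Rfxank. The list of class I transcription factors held 23 genes, of which 19 were kept, with a median log2 ratio of 0.12, or -0.37 when scaled to Gapdh.

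The interferon regulatory factors differed from each other in direction. Irf7, an interferon-induced factor that amplifies type I interferon production, was the only gene of that list more than 2-fold lower, at 10.0 RPKM in WT PCs and 1.03 RPKM in Kai1−/− PCs, or 10.3% of WT (7.69 to 13.6%). Irf1, a factor that binds the interferon element of class I promoters, was the only gene more than 2-fold higher, at 5.49 RPKM in WT PCs and 13.5 RPKM in Kai1−/− PCs, or 247% of WT (216 to 284%). Irf9, the DNA-binding subunit of the factor that carries the type I interferon signal, was at 55.3% of WT (49.0 to 62.2%). The NF-κB genes Nfkb1, Nfkb2, Rela and Relb, whose products bind κB sites, had log2 ratios of 0.08, 0.28, -0.06 and -0.08.

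The interferon-stimulated genes, which encode antiviral effectors and regulators of the interferon response, had a lower median ratio than the class I genes, with some of them close to WT. Of 25 such genes, 11 were kept, of which 6 were more than 2-fold lower and 0 were higher by that factor. Among all genes kept, 7.81% were lower and 7.98% higher by that factor. The median log2 ratio of the 11 was -1.56, or -0.80 among genes averaging 5 RPKM or more. Most of the 14 below the filter were lower in Kai1−/− PCs too, whereas Mx1 was higher, at 0.00186 RPKM in WT PCs and 0.270 RPKM in Kai1−/− PCs. Ifit3 stood at 10.3 RPKM in WT PCs and at 1.23 RPKM in Kai1−/− PCs, Bst2 at 22.3 and 3.19, and Usp18 at 3.21 and 0.191. Ifi35 stood at 41.8 and 40.0 RPKM, and the log2 ratios of Ifit2, Xaf1 and Rtp4 were -0.09, -0.35 and -0.40, above those of both heavy chains. Of the 12 genes of interferon receptors and signalling, 10 were kept and 0 were more than 2-fold different in either direction. Jak1, the kinase shared by both types of interferon receptor, was the lowest of them, at 32.1 RPKM in WT PCs and 17.2 RPKM in Kai1−/− PCs. Ifnb1 and Ifng, which encode interferons, were listed at 0 in both libraries.

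Among 28 other class I and class I-like heavy chains, 25 were in the tables and 8 were kept, with a median log2 ratio of -0.47. Mr1, which presents vitamin metabolites to MAIT cells, was more than 2-fold lower, at 2.59 RPKM in WT PCs and 1.09 RPKM in Kai1−/− PCs, or 42.0% of WT (31.3 to 56.1%). Fcgrt, the heavy chain of the neonatal Fc receptor, which also pairs with β2-microglobulin, was at 63.4% of WT (58.8 to 68.3%). H2-T23, a nonclassical heavy chain that presents leader peptides of other class I molecules, was the highest heavy chain in the tables, at 183 RPKM in WT PCs and 220 RPKM in Kai1−/− PCs. H2-T23 had a log2 ratio of 0.26, and H2-T24 one of 0.25, so that these heavy chains were not lower, although both ratios were below 0 with the libraries scaled to Gapdh. The values of H2-T9 and H2-T10 are uncertain, because 99.8% and 54.6% of their stretches of 36 bases occurred in other genes, and for H2-T23 this share was 26.3%.

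Of the chaperones that take part in peptide loading, Calr, Canx, Hspa5 and Pdia3 lay between 81.5% and 98.8% of WT. Calreticulin (Calr) stood at 621 RPKM in WT PCs and at 614 RPKM in Kai1−/− PCs, calnexin (Canx) at 119 and 113, Hspa5, the BiP chaperone, at 134 and 114, and Pdia3, the oxidoreductase bound to tapasin, at 117 and 95.6. Calreticulin was within counting error of WT, while Hspa5 was at 85.1% (82.5 to 87.7%) and Pdia3 at 81.5% (78.9 to 84.1%), about as low as Tap1. Tapbpl, which encodes TAPBPR, a relative of tapasin that edits the bound peptide, was at 119% of WT (111 to 128%), and below WT with the libraries scaled to Gapdh. Of the 16 genes of peptide loading and trimming, 15 were kept and their median log2 ratio was -0.02. The peptidases Thop1 and Blmh, which act on peptides in the cytosol, were the only genes of this list more than 2-fold different, both higher, with log2 ratios of 1.29 and 1.01.

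In contrast to the presentation genes, the constitutive proteasome had a higher RPKM in the Kai1−/− library. All 14 kept genes of the constitutive 20S core had a log2 ratio above 0, from 0.17 to 1.09 (those under 0.50 change sign when scaled to Gapdh), and 1 of them, Psma5, was more than 2-fold higher (29.8 RPKM in WT PCs, 63.6 RPKM in Kai1−/− PCs). The median log2 ratio was 0.71 for the 20S core, 0.40 for the 21 genes of the 19S regulatory particle, which feeds unfolded proteins into the core, and 0.44 for the 9 genes of activators and assembly factors. With both libraries scaled to Gapdh these medians were 0.21, -0.10 and -0.05, and the median of all genes kept was -0.42. A scaling moves all genes nearly alike, so their place above the median gene was not tested by it. The assembly chaperones Psmg1 and Psmg4 were more than 2-fold higher, with log2 ratios of 1.30 and 1.07. Psme1 and Psme2, the interferon-inducible subunits of the activator that opens the core, were at 113% (106 to 121%) and 145% (137 to 155%) of WT, the former below WT with the libraries scaled to Gapdh.

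**Figure D4:**
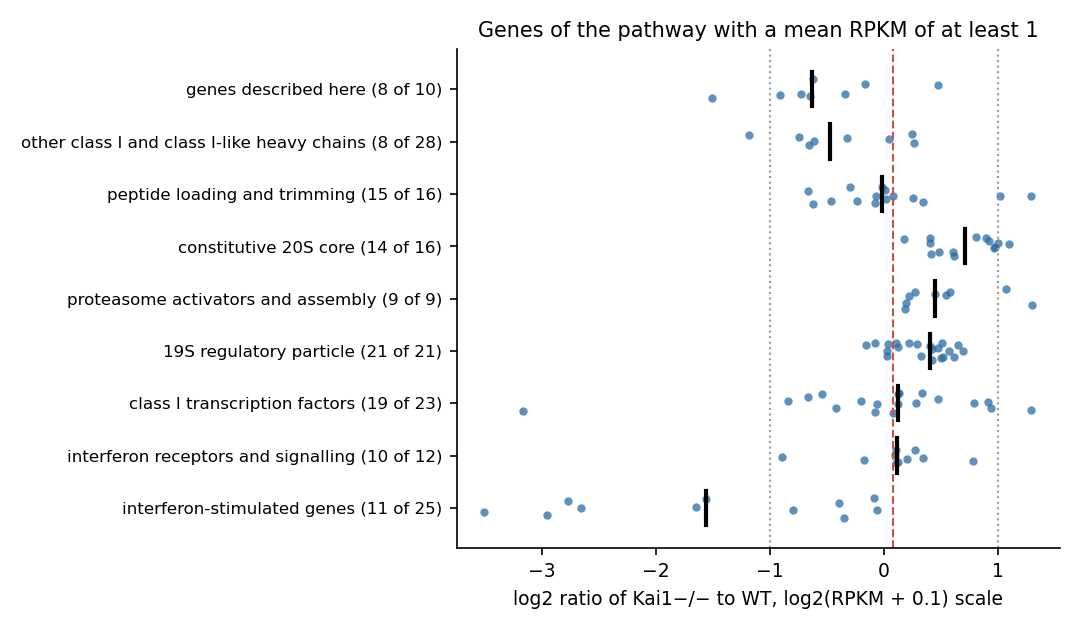
Log2 ratio of Kai1−/− to WT on the log2(RPKM + 0.1) scale for each gene whose mean RPKM was 1 or more, by list, with the number kept of the number listed. Black bars are medians, the dashed line is the median of all genes kept (0.08), and the dotted lines mark a 2-fold difference. The genes described here have a median of -0.63, the interferon-stimulated genes of -1.56 and the constitutive 20S core of 0.71; scaled to Gapdh, the medians of the activators and of the 19S particle lie below 0.

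The median ratio of genes next to the class I genes in the genome was higher than that of the class I genes. Tapbp, H2-K1, Psmb9, Tap1, Psmb8 and Tap2 lie within 300.4 kb of the MHC, and 13 other genes of that stretch were kept. Their median log2 ratio was 0.30, against 0.08 for all genes kept. A ratio below 0 was seen in 3 of the 13, namely Slc39a7, H2-DMa and H2-DMb1, against 44.9% of all genes kept. Within 100 kb of any of the 10 genes, 41 other genes were kept, with a median of 0.23. Of these, 2 were lower by more than 2-fold and 3 were higher by more than 2-fold, near the shares of all genes kept, 7.81% and 7.98%. The lower ones were H2-DMb1, a chaperone subunit of class II peptide loading, which stood at 4.06 RPKM in WT PCs and at 0.657 RPKM in Kai1−/− PCs, and Lst1, a gene of leukocytes, with 16.3 and 6.32. The higher ones were Rps18, Kifc1 and Atp6v1g2. Psmb9, Tap1, Psmb8 and Tap2 follow each other within 34.3 kb, and their log2 ratios were -0.09, -0.34, -0.16 and -1.51, and the counting interval of Tap2 overlapped that of Psmb9 but not those of Tap1 and Psmb8.

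**Figure D5:**
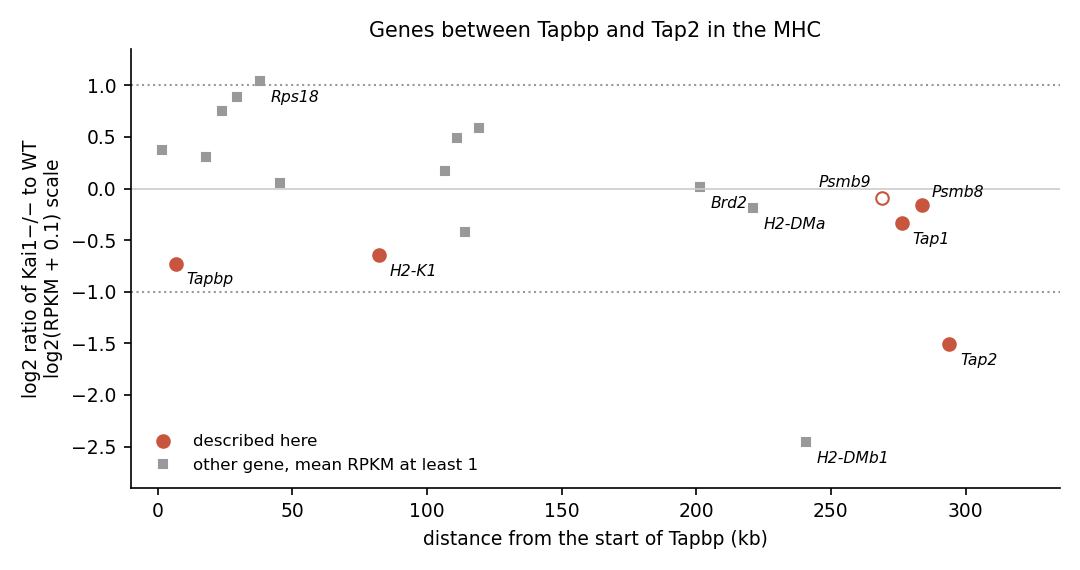
Log2 ratio of Kai1−/− to WT on the log2(RPKM + 0.1) scale against the distance in kb from the start of Tapbp, for genes between Tapbp and Tap2. Red circles are the genes described here (open for Psmb9, below a mean RPKM of 1), grey squares are other genes whose mean RPKM was 1 or more, and dotted lines mark a 2-fold difference. Tap2 (-1.51) and H2-DMb1 (-2.46) lie below the lower dotted line, and Rps18 (1.04) lies above the upper one.

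Markers of other cells were read beside these values, since leukocytes carry high levels of class I molecules and of Psmb8 and Psmb9. Of 16 leukocyte and macrophage markers, 5 were kept, of which Csf1r, Tyrobp, Lyz2 and Nkg7 were more than 2-fold lower and Cd14 was more than 2-fold higher in Kai1−/− PCs. The summed RPKM of all 16 was 32.7 in WT PCs and 17.0 in Kai1−/− PCs, and without Cd14 the other 15 summed to 30.8 and 6.72. Ptprc, which encodes CD45, had an RPKM of 0.0407 and 0.00697. Emr1, Itgax, Fcgr1, Cd3e and Flt3 were listed at 0 in both libraries. The 10 endothelial markers summed to an RPKM of 1.30 in WT PCs and were all listed at 0 in Kai1−/− PCs. The part of such cells in the class I values was not tested, and in a bulk library fewer cells of a type cannot be told apart from less RNA per cell.

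The perivascular label was checked in the same way. Of 12 mural markers 7 were kept, with Acta2 at 3823 and 2580 RPKM and Pdgfrb at 44.7 and 31.6 RPKM in WT and Kai1−/− PCs, while Rgs5 and Abcc9 were near 0. All 7 had a lower RPKM in Kai1−/− PCs, against 44.9% of all genes kept, with a median log2 ratio of -1.04. Of the 7, 4 were more than 2-fold lower, against 7.81% of all genes kept. These were Mcam, Myh11, Cnn1 and Tagln, at 5.39%, 11.7%, 41.2% and 48.5% of WT. Acta2 and Pdgfrb were the least reduced of the 7, at 67.5% and 70.8% of WT. The 5 mural markers below the filter did not share a direction. Des, Notch3 and Abcc9 were lower in Kai1−/− PCs, whereas Rgs5 (0.0630 and 0.233 RPKM in WT and Kai1−/− PCs) and Kcnj8 (0 and 0.791 RPKM) were higher. Of 8 fibroblast markers 7 were kept, with a median of -1.13, and 4 of the 7 were more than 2-fold lower. Col1a1 stood at 924 and 534 RPKM in WT and Kai1−/− PCs and Col1a2 at 824 and 377. Thy1, at 324 and 380 RPKM, was the 1 kept fibroblast marker that was higher. Markers of both lists were thus expressed, and they do not tell mural cells from fibroblasts here. The class II genes, which professional antigen-presenting cells express, were low, with 2 of 11 kept and H2-DMb1 the only kept one more than 2-fold lower. Of those below the filter, H2-Aa was listed at 0 in both libraries, H2-Ab1 stood at 0.681 RPKM in WT PCs and was listed at 0 in Kai1−/− PCs, and Cd74 stood at 0.0992 and 1.03 RPKM. These differences ran beside those of the class I genes, and their part in them was not tested.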

How the data were processed

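RNA of WT and Kai1−/− PCs was sequenced, 1 library each. Reads were aligned to mm9 by the authors (TopHat2 2.0.9, Bowtie), who deposited 1 RPKM value per RefSeq gene and library; depth, read length and strandedness are not given in the sources used here. Of the 20462 deposited rows, 38 carried no symbol and were dropped, and values of the 153 symbols on several rows were averaged, giving 20211 symbols. The log2 ratio used a pseudocount of 0.1 RPKM, and counts used the 10068 genes whose RPKM averaged 1 or more. No test was run, since each genotype had 1 library. Reads were estimated from steps of low RPKM values in genes with a single transcript of over 800 bases, less a fragment length of 200 bases, and 79.8% (WT) and 77.9% (Kai1−/−) of these values were whole to within 0.15 read. Intervals are exact 95% binomial or Poisson intervals of these reads, which use the longest coding transcript of GENCODE M1 (NCBIM37) and are approximate. The steps were tested on simulated data. Alternatives were pseudocounts of 1 and 0.01 RPKM, 4 scalings, other filters and summed symbols. A rule set which genes could be named. It covered the 10 genes, the constitutive partners, the largest differences past 2-fold in each related list, neighbours within 100 kb and Cd82. Not every gene covered by the rule was named. Others named in the report were chosen to describe a list after their values were seen. The genes and lists were chosen with earlier results of these data known. Computations used Python 3.11.15, numpy 2.4.6, pandas 2.3.3, scipy 1.17.1 and matplotlib 3.10.9. Some genes of the related lists are not reported here by name.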

Additional observations from a re-analysis of the deposited data

How the results depend on the processing

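With 1 library per genotype there was no replicate to leave out. No paired analysis was possible because there was a single library per genotype. Among 70 log2 ratios recomputed for the class I genes, 52 stayed within the counting interval, 17 moved further with the same sign, and that of Psmb10 changed sign, to -0.023 under scaling to Gapdh. The 52 include ratios that could not move, since summing repeated symbols leaves these genes unchanged. The ratio of Nlrc5 could not move under the scalings either, since its value of 0 in the Kai1−/− library stays at 0 when multiplied. The 52 also include ratios of Psmb9, and of Nlrc5 under other pseudocounts, and the counting intervals of both genes are wide. Of 107 recomputed counts and medians, 76 stayed, 23 moved and 8 changed sign.

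The number of class I genes more than 2-fold lower was 1, but 2 with the upper quartile made equal, 2 with the summed RPKM without ribosomal protein genes made equal, 5 scaled to Gapdh, and 0 among genes averaging 5 RPKM or more, a filter that leaves Tap2 out. Their median log2 ratio was -0.82 under the sum without ribosomal protein genes and -1.13 under Gapdh. Under these scalings the median gene kept was at -0.11 and -0.42. Under each of the 9 alternatives, 8 of the 9 genes above 0 in both libraries stayed below that median. For the scalings this was nearly fixed in advance, since they move these genes and the median together. Over all genes kept, 786 were more than 2-fold lower and 803 higher. These counts were 898 and 644 with the median set to 0, 1077 and 487 under the sum without ribosomal protein genes, 1815 and 249 under Gapdh, 968 and 576 under the upper quartile, 1878 and 1205 without a filter, 350 and 511 among genes averaging 5 RPKM or more, and 572 and 550 with a pseudocount of 1 RPKM.

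Scaled to Gapdh, the medians were -0.95 for other heavy chains, -0.52 for peptide loading, 0.21 for the 20S core, -0.054 for activators and assembly, -0.10 for the 19S particle, -0.37 for class I transcription factors, -0.37 for interferon signalling and -2.02 for interferon-stimulated genes. Under the sum without ribosomal protein genes they were -0.21 for peptide loading, 0.52 for the 20S core, 0.25 for activators, 0.21 for the 19S particle, -0.071 for transcription factors and -0.077 for interferon signalling. With the upper quartile made equal they were -0.15 for peptide loading, 0.59 for the 20S core, 0.27 for the 19S particle, -0.0059 for transcription factors and -0.013 for interferon signalling, and with the median set to 0 they were 0.63 for the 20S core and 0.32 for the 19S particle. Scaling shifts genes nearly alike by construction, and low genes by less because of the added 0.1 RPKM. The median of interferon-stimulated genes was -1.01 with a pseudocount of 1 RPKM and -0.80 among genes averaging 5 RPKM or more. Without a filter the median was -0.011 for other heavy chains and 0 for class II genes, since many of them are near 0 in both libraries. Psmb9 and Nlrc5, with about 10 reads, limit what can be said of them at this depth.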
